A study of Mus musculus with 4 samples.

Results

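Tfrc encodes the transferrin receptor, the cell surface protein that binds iron-loaded transferrin. It was chosen with its values on these arrays already known, for a large difference between days that was unequal in 2 mouse cell lines and for its role in iron uptake, so its levels are given as a description with no test. It is 1 of 15 genes that the scanner files name by a RefSeq mRNA accession, and its probe (accession NM_011638.3) was printed in 20 spots on each array. The groups were C3H10T1/2 at day 0, C3H10T1/2 at day 4, 3T3-L1 at day 0 and 3T3-L1 at day 4, counted from induction of adipocyte differentiation, with 1 array per group. C3H10T1/2 cells are mesenchymal progenitors that grow like fibroblasts, and 3T3-L1 cells are already committed to the preadipocyte stage. No genetic change was named for either line. The labels used here do not name the inducing agents. Each group is 1 RNA sample of 1 line, so the spread between cultures was not measured. The SDs below are over repeated spots of 1 probe, a technical error within arrays only. They do not hold the error of labelling, hybridisation or scaling, which the spots of an array share.

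Transferrin carries ferric iron in serum and culture medium, and the receptor takes it into the cell by clathrin-mediated endocytosis. In acid endosomes the iron is released, and the receptor with empty transferrin returns to the surface. The mRNA is known for its control by iron: iron regulatory proteins bind stem-loops in its 3′ untranslated region and protect it from decay when iron is scarce, and hypoxia-inducible factors and Myc are known to raise its transcription. Dividing cells generally carry much of the receptor, and the mitochondria and haem and iron-sulphur enzymes of adipocytes need iron.

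The gene has 2 annotated start sites on mouse chromosome 16, 226 bases apart, in the RefSeq promoter table of build GRCm38.p6. The bases before the first of them are shown because they are the gene's own sequence just upstream of that start, and the capitals mark the letters of a CCAAT box. Which start the RNA measured here used was not tested. The second line shows a stretch across the first start that holds the core letters of a hypoxia response element (ACGTG) and the letters TGACGT, found in cyclic AMP response elements, both in capitals. It overlaps the end of the first line.
Tfrc, chr16:32608646-32608895, plus strand: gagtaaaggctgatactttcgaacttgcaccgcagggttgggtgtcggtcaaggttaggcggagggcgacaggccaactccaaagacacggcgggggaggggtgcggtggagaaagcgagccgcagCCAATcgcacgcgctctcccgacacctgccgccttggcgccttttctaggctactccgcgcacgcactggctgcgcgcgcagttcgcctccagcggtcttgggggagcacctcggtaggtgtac
Tfrc, chr16:32608892-32608921, plus strand: gtACGTGcggaaggaagTGACGTagatcca
Motifs were searched on both strands in windows from 250 bases before to 50 bases after each start. ACGTG was present in 19.6% of the 32851 windows of the table, TGACGT in 7.51% and CCAAT in 37.4%. Tfrc had 1 match of each in its first window. The letters ACGTG lie 2 bases before the first start and run across it. The second window also held TATAA (in 24.9% of windows) and 2 matches of the GC box GGGCGG (in 35.7%). No match of the Myc E-box CACGTG (in 7.15%), the C/EBP letters TTGCNNAA (in 10.8%) or the DR1 consensus that PPARG binds (in 0.0396%) was in either window. The 250 bases before the first start were 64.8% G and C, against a median of 52.4% over the windows. A match is a string of letters and not a measured binding site, and the arrays did not measure binding.

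The Tfrc signal was far above background on all 4 arrays. In C3H10T1/2 at day 0 the processed intensity of the 20 spots had a lowest value of 4700 units, a median of 5227 and a highest value of 5589. In C3H10T1/2 at day 4 the spots ran from 48116 through a median of 50071 to 53778. The C3H10T1/2 arrays thus held both the lowest and the highest Tfrc levels of the study.

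In 3T3-L1 at day 0 the lowest spot was 14030 units, the median 15047 and the highest 16442. In 3T3-L1 at day 4 these values were 24637, 26479 and 30499. Both 3T3-L1 arrays lay between the C3H10T1/2 arrays, and no spot of any array overlapped the spots of another. All 20 spots were called well above background on each array, none was saturated and none had its signal marked as an outlier. In 3T3-L1 at day 4 the local background of 1 Tfrc spot was marked as an outlier. Spots of the negative control probes had medians of 5.62 to 6.46 units, and the dimmest probe called above background on an array had 23.3 to 25.1 units.

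**Figure D1:**
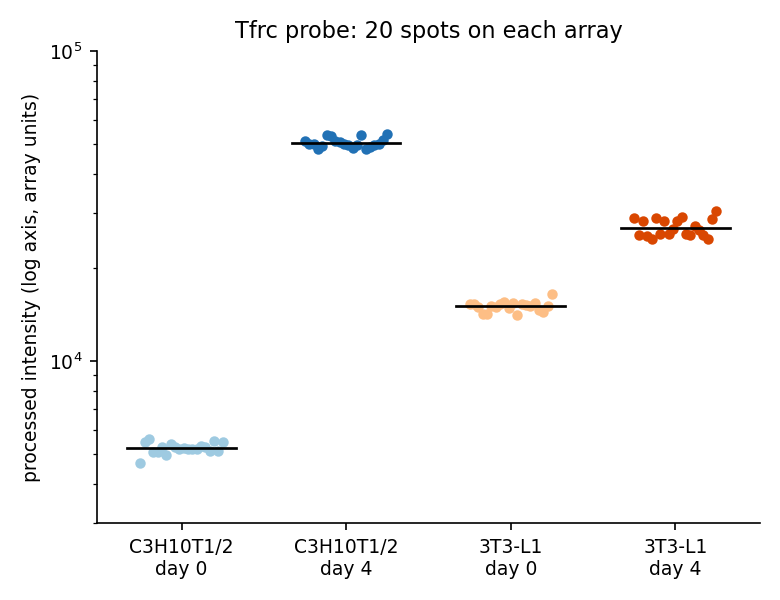
Processed intensity of each of the 20 Tfrc spots (points, log axis) on the 4 arrays, with the geometric mean of each array as a black line. The arrays form 4 separate bands, with C3H10T1/2 lowest at day 0 and highest at day 4 and 3T3-L1 in between.

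To set arrays beside each other, each level was taken as log2 intensity minus the 75th percentile of all probes on the same array, which was 321 units at day 0 and 364 at day 4 in C3H10T1/2, and 388 and 356 units in 3T3-L1. On this scale the Tfrc level of C3H10T1/2 was 4.03 before induction and 7.12 at day 4, and that of 3T3-L1 was 5.27 and 6.24. The order from low to high was therefore C3H10T1/2 day 0, 3T3-L1 day 0, 3T3-L1 day 4 and C3H10T1/2 day 4. Neighbours in this order were 1.25 ± 0.07, 0.97 ± 0.09 and 0.88 ± 0.09 apart (log2, SD over 20 spots matched by position), which is more than the spread of the spots in every case. The highest spot of the lower array stayed below the lowest spot of the higher array by 1.06, 0.71 and 0.63.

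The question of the study was which long noncoding RNAs and mRNAs change as adipocytes form, and Tfrc is an mRNA of that comparison. In C3H10T1/2 the level was 8.52-fold higher at day 4 than at day 0 (log2 change 3.09 ± 0.08, SD over 20 spots). The single spots gave 7.91-fold to 9.64-fold. In 3T3-L1 it was 1.96-fold higher (0.97 ± 0.09), with spots from 1.81-fold to 2.26-fold. All 20 spots had the higher signal at day 4 in each line.

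How common such changes were is given by all probes that were called above background on either or both of the arrays compared. In C3H10T1/2 8.52% of 38303 probes were at least 2-fold higher at day 4, and 348 (0.909%) were higher by as much as Tfrc or more. In 3T3-L1 8.45% of 40237 were at least 2-fold higher. Tfrc lay just under that threshold there, with 3592 probes (8.93%) at or above its change. The C3H10T1/2 value was thus in the far tail of the array, and the 3T3-L1 value was not.

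**Figure D2:**
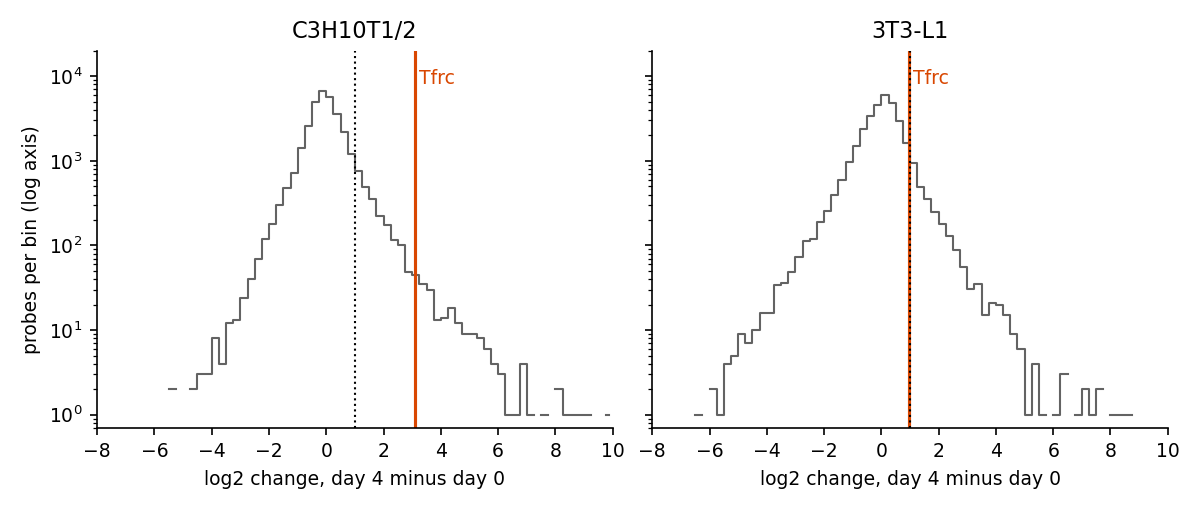
Distribution of the log2 change from day 0 to day 4 over the 32829 probes above background on all 4 arrays (grey outline, probes per bin of 0.25 on a log axis), for each line. The solid line marks Tfrc, at 3.09 in C3H10T1/2 and 0.97 in 3T3-L1, and the dotted line a 2-fold increase.

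The line comparison turned over between the days. Before induction, at day 0, 3T3-L1 had the higher level, 2.37-fold that of C3H10T1/2 (log2 difference 1.25 ± 0.07, SD over 20 spots; 20 of 20 spots higher). At day 0 7.63% of 39960 probes were at least 2-fold higher in 3T3-L1, and 2189 (5.48%) were higher by as much as Tfrc. At day 4 the signal was 1.84-fold lower in 3T3-L1 (-0.88 ± 0.09), with the spots from 1.63-fold to 2.05-fold lower. At day 4 8.30% of 38917 probes were at least 2-fold lower in 3T3-L1, and Tfrc was not among them by its mean. The change in 3T3-L1 minus that in C3H10T1/2 was -2.12 ± 0.11. Of 32829 probes above background on all arrays, 8.60% had a difference of responses of -1 or lower, and 487 (1.48%) lay at or beyond that of Tfrc. The array design allows no test of this difference, because each line has 1 array per day.

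The same probes show how often this combination occurred. A difference between lines that was above 0 at day 0 and below 0 at day 4 was found for 5575 of the 32829 probes (17.0%). Differences at both days as far out as those of Tfrc were found for 72 others (0.219%), and the order of the 4 levels was the same for 1200 others (3.66%). The increase in C3H10T1/2 was as large as that of Tfrc, or larger, for 204 other probes. Their median change in 3T3-L1 was 2.68, and 42 of them (20.6%) had a smaller change in 3T3-L1 than Tfrc. Most probes that were this much higher in C3H10T1/2 were thus higher in 3T3-L1 by more than Tfrc was.

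**Figure D3:**
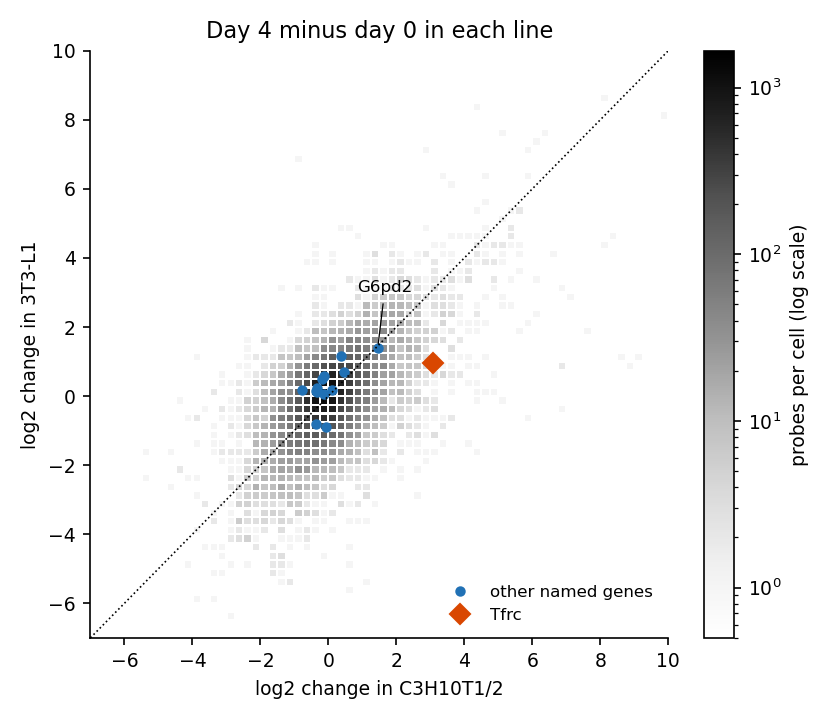
Log2 change from day 0 to day 4 in C3H10T1/2 (horizontal) and 3T3-L1 (vertical) for 32829 probes above background on all arrays, as grey cells shaded by the number of probes on a log scale. Tfrc (diamond, 3.09 and 0.97) lies below the dotted line of equal change, while G6pd2, labelled among the 13 other named genes (circles), lies close to it.

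Genes often used as references gave a second scale within the same arrays. The 8 that the files name are Actb, B2m, Gapdh, Gusb, Hprt, Ppia, Rpl13a and Tbp. Relative to each of them in turn, the Tfrc change in C3H10T1/2 was higher by 2.64 (against Gapdh, a glycolytic enzyme) to 3.45 (against Ppia, a peptidyl-prolyl isomerase) on the log2 scale, or 6.22-fold to 10.9-fold. In 3T3-L1 the relative change ran from -0.18 against Hprt, an enzyme of purine salvage, to 1.86 against Gusb, a lysosomal enzyme, and was above 0 for 7 of the 8. The direction in 3T3-L1 therefore depended on the reference gene, with Hprt itself 1.15 higher at day 4 there. Relative to the references, the difference between lines at day 0 was above 0 for all 8 (0.91 to 1.92) and at day 4 below 0 for all 8 (-1.41 to -0.20).

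The 10 alternatives run on each Tfrc value, among them the mean of the 8 reference genes, did not change its direction. Those that only summarised or chose the spots differently could not, since all spots lay on the same side of 0 in each comparison. The day 4 change in C3H10T1/2 ran from 2.88 to 3.27 over 10 alternatives, and that in 3T3-L1 from 0.79 to 0.98. The difference between lines was 1.25 to 1.52 at day 0 and -0.91 to -0.77 at day 4. In the authors' deposited table the log2 value of Tfrc was 12.56 at day 0 and 15.44 at day 4 for C3H10T1/2, and 13.88 and 14.67 for 3T3-L1, which is the same order of levels.

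**Figure D4:**
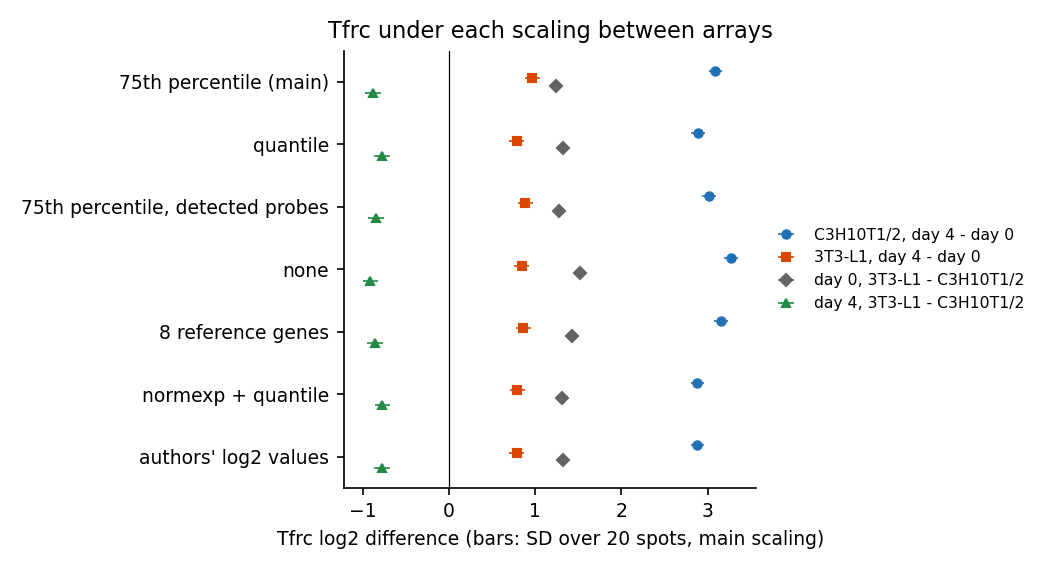
Tfrc log2 differences (horizontal axis) under the main scaling and 6 others (rows), for the day comparison in each line and the line comparison on each day. Bars are the SD over 20 spots under the main scaling. Circles (C3H10T1/2, 2.88 to 3.27) stay apart from squares (3T3-L1), and diamonds (day 0) and triangles (day 4) stay on opposite sides of 0.

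The probes most like Tfrc were found by the root mean square difference over the 4 arrays between log2 levels, each centred on its own mean. Of 32828 other probes above background on all arrays, 17 (0.0518%) lay within 0.25 of Tfrc, against a median distance of 1.20. The nearest was ASMM10P050725, at a distance of 0.11. It ranked 4 under quantile normalization and with the authors' values (0.16 in each) and 18 with normexp followed by quantile normalization (0.251). The second nearest probe, ASMM10P020446, ranked 1 under these 3 alternatives. The intensity of ASMM10P050725 went from 83.6 units at day 0 to 727 at day 4 for C3H10T1/2, and from 222 to 471 for 3T3-L1. Its log2 changes were 2.94 and 1.21. ASMM10P020446 lay at a distance of 0.14, with changes of 2.74 and 0.87 from intensities of 530.0 and 4020 units (C3H10T1/2) and 1503 and 2523 (3T3-L1). The files pair neither with a gene. Both had the order of levels of Tfrc, with 3T3-L1 higher at day 0 by 1.14 and 1.23 and lower at day 4 (-0.59 and -0.64). Whether any of the 17 probes targets Tfrc itself could not be checked, since the files pair none of them with a gene.

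Of the other named genes, the nearest was G6pd2, at a distance of 0.62, with 528 probes nearer. This gene closely resembles G6pdx, the X-linked gene for the first enzyme of the pentose phosphate pathway, and its signal may come from either. Its changes were 1.45 in C3H10T1/2 and 1.40 in 3T3-L1. It was thus similar in both lines where Tfrc was not. Its differences between lines were small on both days (-0.10 and -0.16). Likeness over 4 arrays is a description of these arrays.

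**Figure D5:**
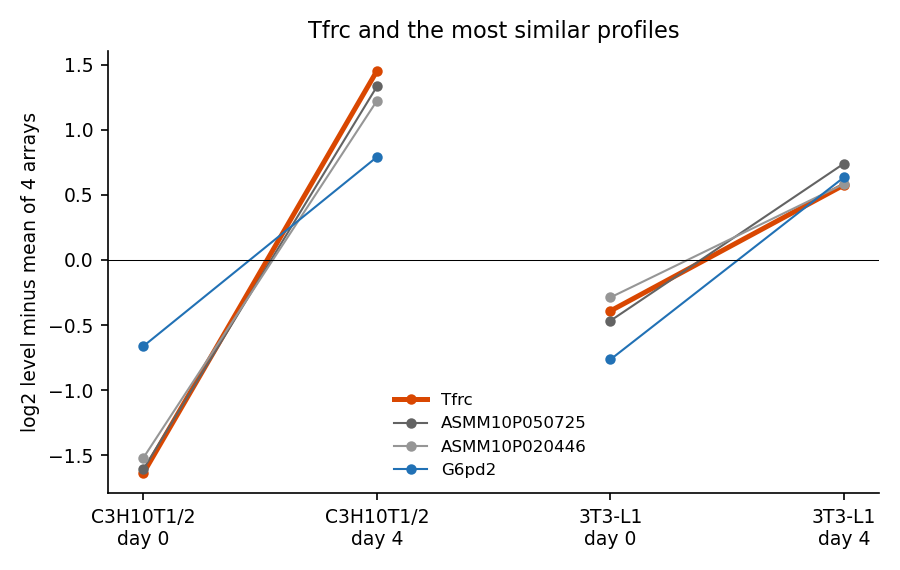
Log2 level minus the mean over the 4 arrays for Tfrc (thick line), the 2 probes nearest to it and G6pd2; lines join the days within a cell line. Tfrc and both probes have a steeper line in C3H10T1/2 than in 3T3-L1, while G6pd2 has like slopes in both.

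The other genes of iron handling could not be set beside Tfrc. Of a list of 30 (uptake, such as Slc11a2 and Steap3; ferritin storage, Fth1 and Ftl1; export by Slc40a1; the iron regulatory proteins Aco1 and Ireb2; mitochondrial iron, haem and iron-sulphur clusters; and the inputs Hif1a and Myc), 0 could be matched to a probe here. Of 22 markers of adipocytes, preadipocytes, blood and endothelial cells, such as Pparg, Adipoq and Pdgfra, 0 could be matched. The cell type of the lines and the extent of differentiation at day 4 were therefore not checked from the arrays. In bulk RNA, more cells with the transcript and more transcript per cell cannot be told apart.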

How the data were processed

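RNA from 4 samples was labelled with Cy3, and each was hybridised to 1 array. The file headers show 1 slide and 1 scan for all 4. Total RNA was depleted of ribosomal RNA and amplified over whole transcripts, per the labels' protocols. The deposited scanner files, made with Agilent Feature Extraction 11.0.1.1 per the submitters' processing notes, give each spot's intensity after subtraction of background and removal of spatial trends on the same array, with no scaling between arrays. Their error model gave 10.0% of the intensity for Tfrc on each array. A deposited table holds the authors' log2 values, with scale, centring and method not given in the sources used here. Its columns had r of 0.9994 to 1.000 with log2 intensity of the same array over 60804 probes, in the same direction and without centring, and medians of 5.93.

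Main values were mean log2 intensities over spots minus the 75th percentile of each array. Control spots, negative control probes and 15 probes printed once, whose spot was not uniform on any of the arrays, were removed. This left 60900 probes, among them repeated probes with such a spot. Repeated probes were averaged without 61 spots marked as outliers. A repeated probe counted as above background where at least 50% of its spots did. Where 1 array was dim, it was set to the higher of its signal and the lowest signal above background there. With 1 array per group no p-value was computed. Probes counted as changed at 2-fold. Counts and distances were tested on simulated data in which every probe counted as above background. The handling of dim probes was not tested there.

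Gene symbols came from the RefSeq table of GRCm38.p6, in which all 15 accessions matched. The array headers name the build mm9, so no gene coordinates are given, and those of promoter sequences belong to GRCm38.p6. The members and lists were chosen with earlier results of these data known. The naming rule took Tfrc, the 2 nearest probes and the nearest other named gene, with listed iron genes where a probe had a name. Reference genes are named for scaling, and Gapdh, Ppia, Hprt and Gusb with values because they set the range. The alternatives were other scalings, normexp (offset 50) in limma 3.58.1 (R 4.3.3) on median spot signals, the authors' values, other summaries over spots, parts of the array, and other filters and thresholds. The normexp values were then quantile normalized. Figures were drawn with matplotlib 3.10.9.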

Additional observations from a re-analysis of the deposited data

Results flagged for a closer look

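The difference between the lines had opposite signs on the 2 days: Tfrc in 3T3-L1 was higher than in C3H10T1/2 at day 0 (log2 difference 1.25) and lower at day 4 (-0.88). Whether this turn between days exceeds the spread between cultures was not tested, since each line has 1 array a day.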

How the results depend on the processing

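None of the 10 alternatives run on each Tfrc value changed its direction. The median over spots and the parts of the array could not do so, since all Tfrc spots had the same direction. Taking in all spots could change nothing, since no Tfrc spot had been left out. Of the 45 other recomputed Tfrc values, 26 moved by less than the SD over spots. Those that moved more are given here. Under quantile normalization the changes were 2.89 in C3H10T1/2 and 0.79 in 3T3-L1, and the line differences 1.32 at day 0 and -0.78 at day 4. With normexp, which was followed by quantile normalization here and below, they were 2.88, 0.79, 1.32 and -0.77. With the authors' values they were 2.88, 0.79, 1.32 and -0.77. Without scaling the changes were 3.27 and 0.84, the day 0 difference 1.52 and the difference of responses -2.43. Scaled to the reference genes, the 3T3-L1 change was 0.86, the day 0 difference 1.43 and the difference of responses -2.29. Leaving the arrays unscaled moves the median difference of the probes above background on either or both of the arrays compared. That median goes from -0.04 to 0.14 in C3H10T1/2 and from -0.02 to 0.25 between lines at day 0.

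Counts of probes past 2-fold in the order C3H10T1/2, 3T3-L1, day 0 and day 4 were 2067, 1978, 1919 and 1746 with normexp. A 1.5-fold threshold gave 6311, 7559, 6158 and 6531, and a 4-fold threshold 976, 881, 991 and 911, by construction. At day 0 the count was 4754 without scaling (11.9% of 39960), 4831 without a filter (7.93% of 60900) and 1921 with a filter on all arrays (5.85% of 32829). At day 4 it was 4913 without a filter (8.07% of 60900). For normexp the cause was not tested. A shift of a whole array cancels in the distance between probes, so 3 of the 5 alternatives could change the probes nearest to Tfrc. Within 0.25 of it lay 15 probes with quantile normalization and 15 with the authors' values (13 shared with the main 17 in each) and 17 with normexp (8 shared). ASMM10P020446 ranked 1 in all 3, and ASMM10P050725 ranked 4, 4 and 18. No replicate could be left out, and no paired analysis was possible because each group has 1 array. The number of arrays limits the precision; Tfrc was at least 845 times the negative controls.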

Other observations

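The 20 Tfrc spots were more scattered in 3T3-L1 at day 4, with an SD of 0.09 on the log2 scale, than on the other arrays, with 0.05 to 0.06. The median SD of the 13 other named genes above background on all arrays was also highest there, at 0.08, against 0.05 on each of the other arrays. Spots in the upper part of the array (8) and the lower part (12) gave Tfrc changes of 0.98 and 0.96 in 3T3-L1 and 3.11 and 3.08 in C3H10T1/2.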
